A study of Mus musculus with 4 samples.

Results

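The transcriptome of unperturbed LSK cells was described from the 2 control arrays of the series, out of 4 arrays in all. Gene rows with a detection p under 0.01 on both control arrays were kept, which left 9619 of 30854 rows (31.2%), and these were ranked by the mean of their within-array signal ranks. The 200 brightest rows, 0.648% of all rows, and the genes of 33 lists (surface, lineage, cell cycle and metabolism) are described below. The brightest rows were chosen by these signals and detection p-values, so their levels are a description and no test was made.

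Both control samples were LSK cells sorted by flow cytometry from total bone marrow of C57BL6/J mice aged 12 to 16 weeks. Every mouse had received pIpC, a double-stranded RNA mimic that provokes an interferon response, 1 week before harvest. Each array held total RNA from a pool of 3 to 5 mice, so a signal is an average over animals as well as over cells. The other 2 arrays held LSK cells of B-myb floxed-MxCre mice given the same treatment, and they enter here only in 1 count. The labels give the control genotype as "control" and do not say whether those mice carried floxed alleles or the Mx-Cre transgene.

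LSK cells lack the surface markers of mature blood lineages and carry Sca-1 and the receptor Kit. The fraction contains the long-term hematopoietic stem cells, which divide rarely and can rebuild all blood lineages, together with a larger number of multipotent progenitors that divide more often and have begun to switch on genes of single lineages. Interferon is known to push dormant stem cells of the mouse into division and to raise Sca-1 on progenitors.

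Signals are deposited intensities in arbitrary units and are given for replicate 1 first and replicate 2 second, each with the standard error over the beads of that array. The bead error covers the array measurement alone, and the only check on biological spread is the distance between the 2 pools. The gene rows had a median signal of 91.2 and 84.2, close to the 86.7 and 80.7 of the 936 negative control probes, and the brightest row reached 16169 and 16703. A percentile is the mean over both arrays of the row's position among all 30854 gene rows. Signal also depends on the probe, so an order of signals is an order of brightness and not of transcript amounts. Over the 9619 detected rows Spearman's rho between the arrays was 0.952, across rows that are not independent replicates. Of the 200 brightest rows of either array alone, 174 were shared.

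**Figure D1:**
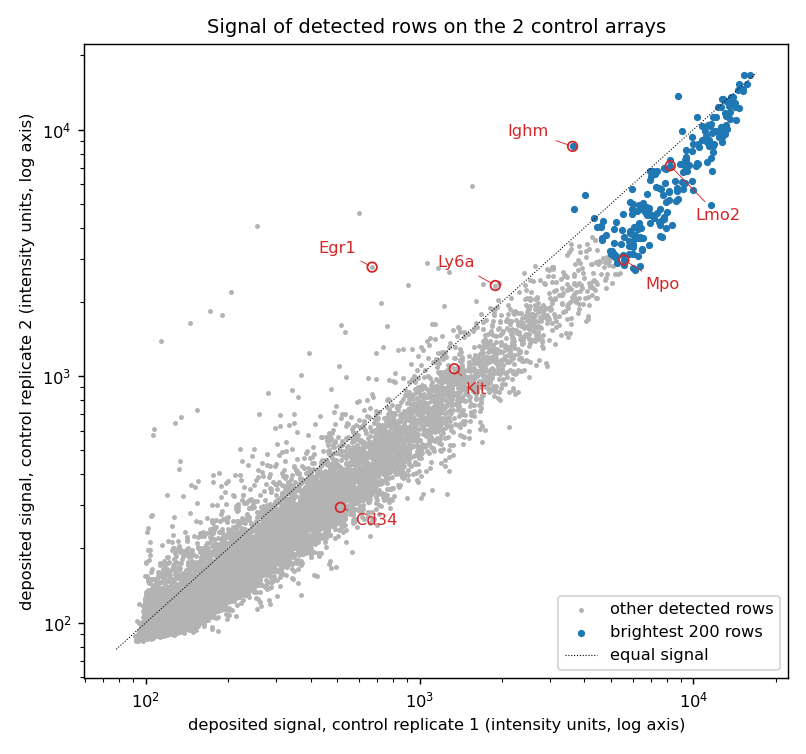
Deposited signal of the 9619 detected rows on control replicate 1 (horizontal, intensity units, log axis) and control replicate 2 (vertical, intensity units, log axis), with the 200 brightest rows in blue and the dotted line at equal signal. Most rows lie below the line because replicate 1 was the brighter array, and Ighm and Egr1 lie far above it. Kit is ringed although it did not meet the detection rule.

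The deposited detection p did not follow signal for every row. Of 9940 rows brighter than the highest negative control probe on both arrays, 1354 did not reach a detection p under 0.01 on both. B2m, the light chain of class I major histocompatibility molecules, read 6662 ± 416 and 5019.6 ± 282 with detection p of 0.162 and 0.145. Tubb5, a tubulin (6577 and 3772), Npm1, a nucleolar chaperone (5163 and 4900.4), and the ribosomal protein gene Rplp2 (4983 and 5185) were left out in the same way. For this reason a second count is given beside detection, of rows above the 99th percentile of the negative control probes on both arrays (98.6 and 88.8 units), which 11072 rows passed (35.9%).

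Ly6a and Kit, which encode the markers of the gate, and the progenitor gene Cd34 were above the negative controls on both arrays. Ly6a, which encodes Sca-1 and is itself interferon-inducible in mice, read 1891 ± 103 and 2331 ± 122 and stood at rank 437 of the detected rows. Kit, the stem cell factor receptor, read 1339.9 ± 126 and 1071 ± 87.3, at percentile 97.2, but its detection p of 0.0233 on replicate 2 kept it out of the detected rows. Cd34, a sialomucin of progenitors that long-term stem cells of adult mice largely lack, read 514 ± 31.3 and 294 ± 20.3 and ranked 2784. The deposited signal of Ly6a was higher on replicate 2 and those of Kit and Cd34 on replicate 1, the brighter array, and after the normalization described further on Kit was higher on replicate 2. Of the genes behind the label, Ly6a thus met the detection rule and Kit was bright without meeting it.

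Genes of protein synthesis filled the top of the ranking. Ribosomal protein genes gave 38 of the 200 brightest rows (19.0%), against 0.582% of all detected rows, and 38 of the 68 ribosomal protein rows on the array were among the 200. Rplp1, a protein of the ribosomal stalk, was the brightest row of all at 16169 ± 508 and 16703 ± 375. Of the small subunit, Rps4x (15313 and 16603) and Rps29 (15236 and 14567) followed at ranks 3 and 4. Rpl9 (14602 and 14451), Rps12 (13750.1 and 13587), Rpl41 (14247 and 12783) and Rps2 (14686 and 12245) were also within the first 20 rows. A further 11 rows (5.5%, against 0.634% of detected rows) had names counted with translation factors. Among them were Btf3, a subunit of the nascent polypeptide complex, and Pabpn1, a nuclear poly(A)-binding protein, which are not translation factors themselves.

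Among the translation factors, Eef1a1, which delivers transfer RNA to the ribosome, read 9876 ± 268 and 9373 ± 313. Eef1g, a subunit of the complex that recharges it, read 12724 ± 520.1 and 10033 ± 377. Subunits of the initiation factor eIF3 supplied several of the others, with Eif3f at 9136 ± 402 and 6747 ± 402 the brightest of these. A second row of Eif3f, under an older name, read 6283 ± 301 and 3069 ± 126. Ubb, which encodes ubiquitin as a chain of repeats, read 14048 ± 555 and 12662 ± 469.8. A further 9 rows (4.5%, against 0.260% of detected rows) carried names of ribosomal protein pseudogenes and 27 (13.5%, against 1.89%) of other pseudogenes. The second row of the ranking, Gm9294, was among the latter at 15716 ± 445 and 15373 ± 701. Processed pseudogenes are near-identical copies of expressed genes, so a probe may not tell copy and parent apart, and all these pseudogene rows are uncertain as to their source.

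**Figure D2:**
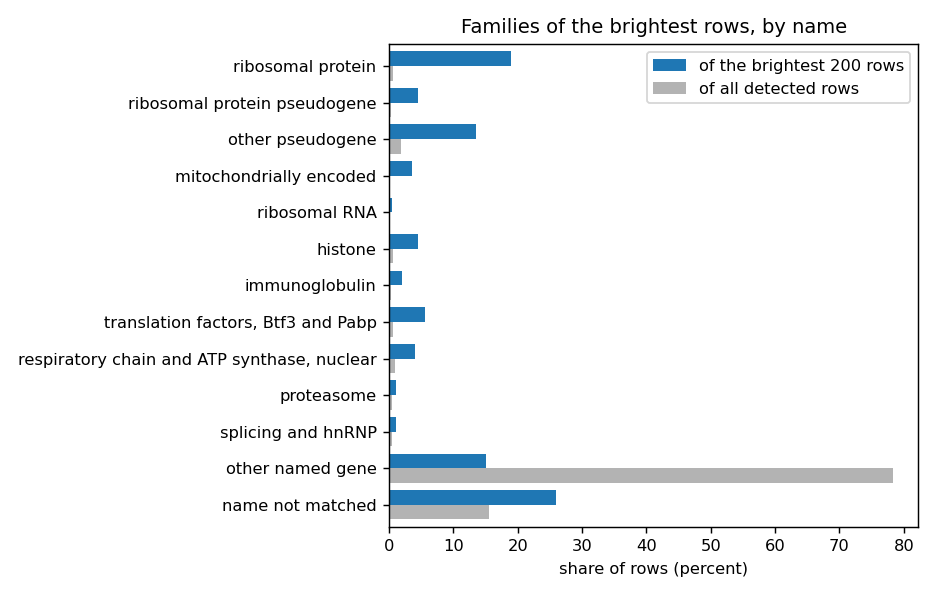
Share of rows (percent, horizontal) in each family of names among the 200 brightest rows (blue bars) and among all 9619 detected rows (grey bars). Ribosomal protein genes made up 19.0% of the brightest rows and 0.582% of the detected rows, and names not matched to a gene 26.0% and 15.6%.

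Ribosomal protein genes are known for a start site within a run of pyrimidines, the mark of transcripts whose translation follows growth signals, and for binding sites of Ets-family factors. Promoters running from 250 bases before the annotated start to 50 bases after it were taken from RefSeq (GRCm38.p6), with the first-listed promoter per gene. Of the 29 ribosomal protein genes among the 200 with a promoter, 6 (20.7%) began with C at the head of an unbroken run of at least 5 pyrimidines, against 2.49% of 27025 promoters and 2.18% of those of detected rows. Among all 44 detected ribosomal protein genes with a promoter the share was 15.9%. These starts are shown because the annotated start carries the feature. Capitals mark the run from the annotated start, in windows with 15 bases on either side of it, at chr2:39005117-39005146 on the minus strand for Rpl35, chr11:114668565-114668594 on the plus strand for Rpl38, chr17:27635230-27635259 on the minus strand for Rps10 and chr4:86857353-86857382 on the minus strand for Rps6.
Rpl35: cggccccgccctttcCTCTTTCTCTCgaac
Rpl38: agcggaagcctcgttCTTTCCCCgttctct
Rps10: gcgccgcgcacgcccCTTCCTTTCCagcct
Rps6: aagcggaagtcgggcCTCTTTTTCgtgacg

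The letters CCGGAAG, a core of Ets-family sites, were searched on both strands of the same promoters. They stood in 14 of the 29 promoters of bright ribosomal protein genes (48.3%), against 9.12% of all promoters and 20.6% of those of detected rows, and in 18 of the 44 of all detected ribosomal protein genes (40.9%). In the other 53 promoters of the 200 the share was 9.43%. The match is shown in capitals for 3 of the brightest ribosomal protein genes that held it, at chr10:128549206-128549235 on the minus strand for Rpl41, chr17:24719925-24719954 on the plus strand for Rps2 and chr10:128626702-128626731 on the minus strand for Rps26. In Rps2 the letters are on the opposite strand and appear as their reverse complement. The first base of the match lay at position −56, −127 and −214 from the annotated start, respectively. A match of letters is not evidence of binding.
Rpl41: tagtaaggcagCCGGAAGtcgctgtctcga
Rps2: atttatacgtcCTTCCGGctggtgtagggc
Rps26: ttaatcttccgCCGGAAGgttaaatagttc

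Transcripts of energy metabolism were the next large group of named rows. Mitochondrially encoded transcripts gave 7 of the 200 rows (3.5%, against 0.166% of detected rows). They were led by cytochrome c oxidase subunit 3 at 13943 ± 439 and 13546 ± 406 and ND4 of complex I at 13558 ± 452 and 11778 ± 324. Cytochrome b and ND4 were each present under both names used on the array, so the 7 rows are not 7 genes. Cytochrome b read 12293 and 12315 in one row and 11534 and 10377 in the other. The second ND4 row read 10448 and 8522. Nuclear genes of the respiratory chain and ATP synthase gave 8 rows (4.0%, against 0.863% of detected rows). Atp5b, the catalytic beta subunit of ATP synthase, read 12678 ± 463 and 8918 ± 355, and Atpif1, an inhibitor of that enzyme, read 11646 ± 469 and 4940.3 ± 199. Gpx1, a peroxidase that removes hydrogen peroxide, read 12274 ± 494 and 9779.9 ± 416 and was at rank 39.

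Histone genes gave 9 of the 200 rows (4.5%, against 0.572% of detected rows), and 8 of these were H2A genes of near-identical sequence, so they may share signal. H2ac23 was the sixth row of the ranking at 15236 ± 427 and 14326 ± 395, and Macroh2a1, the H2A variant with a macro domain, read 7110.2 ± 446 and 6795 ± 479. Replication-dependent histone transcripts lack a poly(A) tail in most cells, and the labels' protocols do not state how the RNA was primed.

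Some genes known for blood cells were among the brightest rows. Of 35 listed stem cell transcription factors 1 was among the 200, and of 16 myeloid progenitor granule genes with a row 2, against 0.648% of all rows. The factor was Lmo2, the adaptor of the stem cell transcription factor complex with Tal1 and Gata2, at 8234 ± 279 and 7138 ± 361 and rank 84. Laptm5, a lysosomal membrane protein of blood cells, read 9229 ± 529.6 and 7217 ± 385. Mpo, the myeloperoxidase of neutrophil and monocyte precursors, read 5574 ± 439 and 2963 ± 194, and the lysozyme row Lyz1 read 5209.6 ± 287 and 4203 ± 195. Lyz1 and Lyz2 are close copies, and Lyz2 had a row of its own at 869.7 ± 45.7 and 1294 ± 69.6. Ifitm3, an interferon-induced membrane protein, read 4458 ± 239 and 4021 ± 194. Cdca7, a target of Myc and E2F factors, read 5128 ± 329 and 3063 ± 206 near the lower end of the 200.

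Immunoglobulin rows gave 4 of the 200 (2.0%, against 0.270% of detected rows), although the gate leaves out B lineage cells. Igkc, the kappa constant region, read 8805 ± 384 and 13689 ± 426, Ighm, the mu constant region, 3621 ± 172 and 8551 ± 375, and a heavy chain variable row 4016 ± 255 and 5427 ± 327. All 3 were brighter on replicate 2, while the lambda variable row Iglv1 read 6376 ± 339.8 and 2796 ± 145 and was brighter on replicate 1. Immunoglobulin segments are a family of similar sequences, and a row may collect signal from several of them. The plasma cell list had 4 of 6 members detected. Its summed signal over its members, taken above the median of the negative controls, was 2443 and 1903. Xbp1, a factor also active in other secretory and progenitor cells, gave the largest share at 2012 and 1524. Mzb1 read 568.6 ± 30.5 and 493.0 ± 22.8, and Irf4 (113.6 and 111.5) and Sdc1 (96.1 and 91.3) were detected at low signal. Jchain (89.7 and 87.1) and Prdm1 (83.6 and 80.1) were at background. The B cell list had 6 of 10 members with a row detected and a summed signal of 2547 and 835. The part of such cells in the immunoglobulin signal was not tested, and in RNA from pooled sorted cells a few cells with much transcript and many cells with little cannot be told apart.

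The remaining rows of the 200 included 52 names that matched no gene, which are counted only. The edge of the ranking was smooth. Pabpn1 (3661 and 4758), Psmb4 (5282 and 2884) and the unmatched LOC270037 (5569 and 2819) held ranks 198 to 200. The unmatched LOC237512 (4360.3 and 3556), Rps13 (4357 and 3568) and Serpina3g (4260.5 and 3677) came just outside. On the 2 arrays of the B-myb floxed-MxCre mice, which did not enter the ranking, 198 of the 200 rows were detected on both and 180 were among the 200 brightest of those arrays.

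The 33 lists held 631 genes, of which 603 had a row, 393 were detected, 461 were above the negative controls and 14 were among the 200 brightest. A list of well-known genes detects more often than the array as a whole, so each count is to be read beside the 31.2% over all rows, and each median percentile beside 46.8 for all rows and 82.7 for detected rows.

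**Figure D3:**
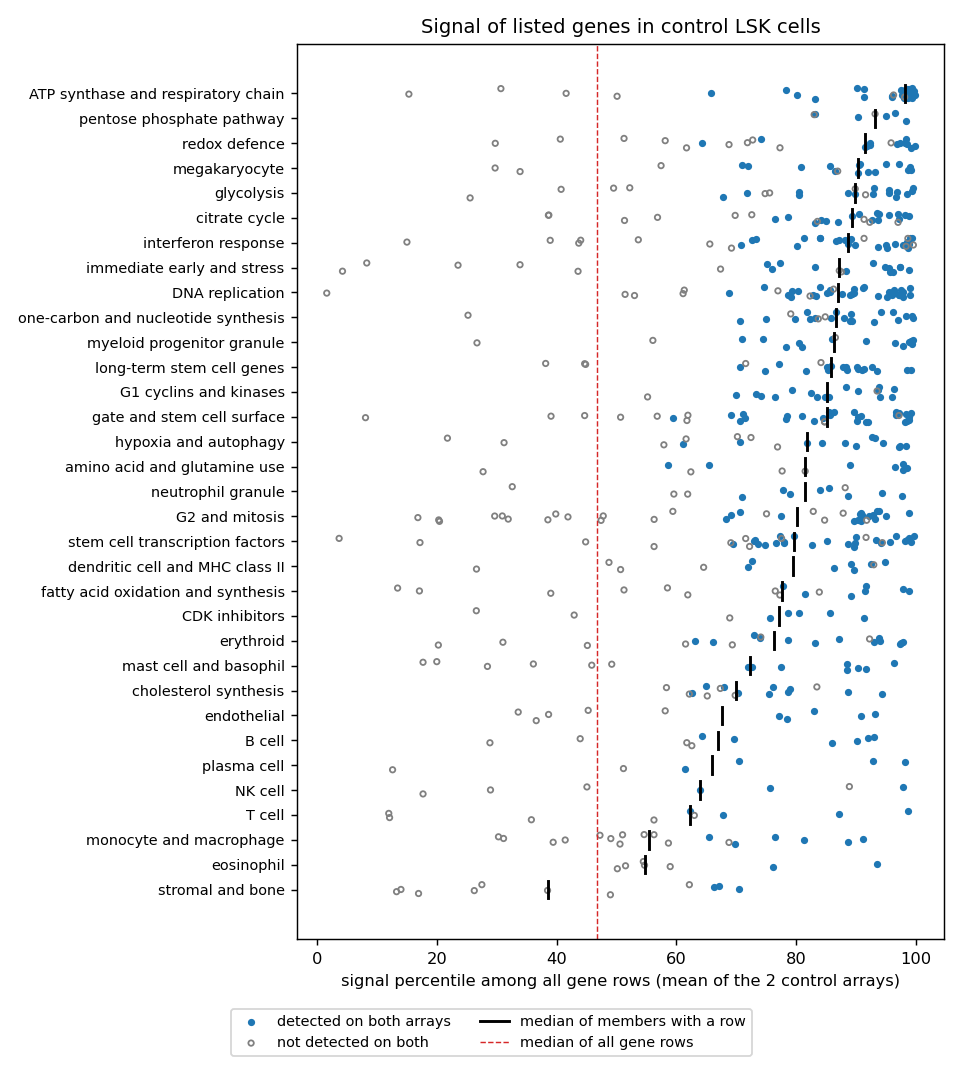
Signal percentile among all gene rows (horizontal, mean of the 2 control arrays) of every listed gene with a row, 1 line per list in order of the list median (black bar), with detected genes filled and others open. The red line is the median of all gene rows at 46.8. ATP synthase and respiratory chain genes had the highest list median at 98.1 and stromal and bone genes the lowest at 38.5.

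Surface and receptor genes of stem and progenitor cells spanned the whole range of brightness. Of 38 genes 28 were detected (73.7%) and 30 were above the negative controls, with a median percentile of 85.1. Cd47, the signal that protects cells from being engulfed, was the brightest at 3448 ± 148 and 3113 ± 153. The tetraspanin Cd81 read 3558 ± 253 and 1990.4 ± 117, the Ly6 family member Ly6e 2591 ± 123 and 2433 ± 124, and Cd27, a receptor of the tumour necrosis factor family found on progenitors, 2343 ± 235 and 1590.4 ± 146. Their deposited signals were higher on replicate 1, the brighter array, but after normalization Cd47 (−0.46 on the log2 scale, replicate 1 minus replicate 2) and Ly6e (−0.50) were higher on replicate 2.

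Several surface genes used to divide the LSK fraction further gave low signals, while Cd34, given above, was brighter. Flt3, the receptor of lymphoid-primed progenitors, read 92.3 ± 2.75 and 83.8 ± 2.32, and Procr, which marks long-term stem cells, 89.7 ± 3.02 and 83.2 ± 2.40. Both were at background on both arrays. Slamf1, which encodes the stem cell marker CD150, was detected at 118 ± 4.20 and 108 ± 3.64, and Cd48, which marks progenitors, at 138 ± 7.52 and 93.00 ± 2.93. The pan-leukocyte gene Ptprc, which encodes CD45 and is present on all these cells, read only 100.1 ± 3.01 and 88.7 ± 2.62. A row at background is therefore not evidence that the transcript was absent. Thy1 read 268 ± 14.8 and 216 ± 12.04, above the negative controls but with detection p of 0.217 and 0.382.

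**Figure D4:**
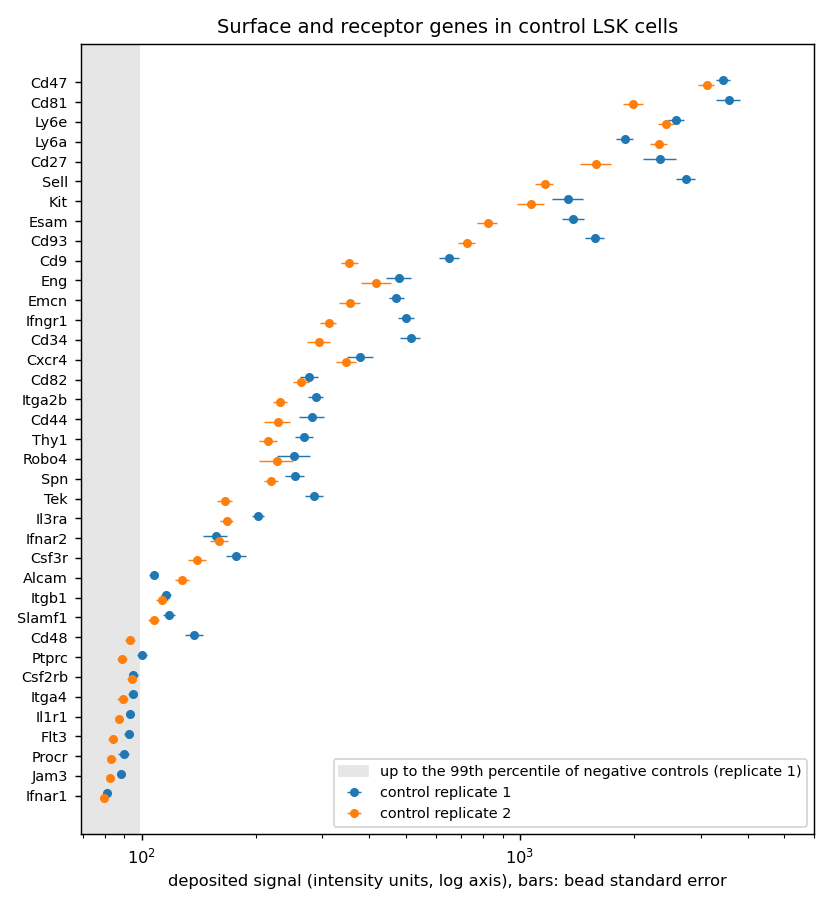
Deposited signal (horizontal, intensity units, log axis) of 37 of the surface and receptor genes on control replicate 1 (blue) and replicate 2 (orange), with bars for the bead standard error and grey shading up to the 99th percentile of the negative controls of replicate 1. Cd47, Cd81, Ly6e and Ly6a were at the top, and Flt3, Procr, Jam3 and Ifnar1 lay within the shading.

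Transcription factors of stem cells followed a similar spread. Of 35 factors 25 were detected (71.4%) and 31 were above the negative controls. After Lmo2, the brightest were Nfe2, a factor of platelet production, at 4062 ± 229 and 3220.0 ± 194, and Ldb1, which bridges Lmo2 complexes on DNA, at 3229 ± 142 and 1761 ± 81.96. Cbfb, the partner of Runx proteins, read 2337 ± 166 and 1660.3 ± 115 and Gata2, a stem cell GATA factor, 1935 ± 112 and 1554 ± 85.7. The deposited signals of all 5 were higher on replicate 1, but after normalization Ldb1 alone of them was higher there. Hoxa9 read 142 ± 6.24 and 164 ± 7.17, above the negative controls but not detected, while Hoxa10 (85.1 and 80.2) and the Ets factor Erg (95.2 and 85.2) were at background.

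Genes that mark long-term stem cells were detected in 18 of 23 cases (78.3%). Txnip, which restrains thioredoxin and glucose uptake, was the brightest at 4713 ± 237 and 2762 ± 123. Tgm2, a transglutaminase, read 590.4 ± 44.2 and 557 ± 45.2, Pdzk1ip1 485 ± 25.3 and 536 ± 25.2, and Cdkn1c, the cyclin-dependent kinase inhibitor p57 that keeps stem cells quiescent, 478 ± 17.2 and 399.8 ± 17.4. Hlf (88.7 and 84.3) and Fgd5 (90.1 and 81.3), which mark the stem cells at the top of the hierarchy in mice, were at background together with Procr. The list thus held rows near the 99th percentile and rows within the negative controls.

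Among genes of single lineages, those of myeloid progenitors and megakaryocytes were the brightest. Of 16 myeloid progenitor granule genes with a row 13 were detected (81.3%), with a summed signal of 22369 and 15157. After Lyz1 and Mpo came the serine proteases Prtn3 at 3575 ± 164 and 3435 ± 152 and Ctsg at 4109 ± 227 and 1755 ± 114. Of 19 megakaryocyte genes 15 were detected (78.9%), with a summed signal of 15040 and 11142 and a median percentile of 90.3. Large parts of that sum came from Nfe2 (4062 and 3220), also listed among the transcription factors, and from Rap1b and F2r. Rap1b, a GTPase that activates platelet integrins, read 3502 ± 219 and 2297 ± 142, the thrombin receptor F2r 2768 ± 203 and 1681 ± 116, and the platelet chemokine Pf4 979 ± 92.7 and 565 ± 59.9. The platelet glycoprotein genes Gp6 (87.1 and 81.3) and Clec1b (89.1 and 80.9) were at background.

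The erythroid list had 13 of 20 members detected (65.0%) and a summed signal of 8461 and 4942. Car1, a carbonic anhydrase of early erythroid cells, read 2132 ± 109 and 1059.6 ± 60.9. The globin row Hbb-b1 read 1697 ± 99.6 and 1079.6 ± 62.5 and Hba-a1 read 1785 ± 81.1 and 933 ± 43.1. Hbb-b2 was at background, and globin copies may not be told apart by a probe. Gata1 read 113 ± 3.34 and 104 ± 2.85, just above the negative controls and not detected. The mast cell and basophil list had 8 of 14 members detected (57.1%). It was led by Fcer1g, a signalling chain shared by many Fc receptors, at 1126 ± 53.3 and 826 ± 63.6, and the granule proteoglycan gene Srgn at 639 ± 51.01 and 335 ± 23.1. Cpa3, a mast cell carboxypeptidase also found in progenitors, read 474 ± 33.7 and 326 ± 29.1. Prss34 (337 ± 16.5 and 320 ± 13.2), Hdc (426 ± 24.1 and 256 ± 17.5) and Mcpt8 (157 ± 13.1 and 98.4 ± 2.39) were also detected. The mast cell proteases Cma1 and Tpsb2 were at background.

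Lists of mature cells that the gate should leave out varied in brightness. The neutrophil granule list had 8 of 12 members with a row detected and a median percentile of 81.5, above the 76.4 of the erythroid list. The dendritic cell and MHC class II list had 7 of 12 detected (58.3%) and a median percentile of 79.5. Its brightest were H2-Ab1, a chain of a class II molecule, at 769 ± 35.7 and 674 ± 48.00, and Cd74, the invariant chain that escorts class II molecules, at 467 ± 24.5 and 571 ± 35.9, while Itgax, which encodes CD11c, was at background. The other lists of this kind had medians from 38.5 to 67.6. Of 18 monocyte and macrophage genes 6 were detected (33.3%), led by Ly6c1 at 494 ± 27.5 and 362 ± 21.9 and F13a1 at 469 ± 24.3 and 249 ± 11.1. Irf8 (260.5 and 145.1), Cd68 (153.9 and 134.9) and Cx3cr1 (113.5 and 106.3) were detected at lower signals. Adgre1, which encodes the macrophage antigen F4/80, C1qc and Ccr2 were at background. Stromal and bone genes had 3 of 11 detected (27.3%) with a summed signal of 100.3 and 65.5, and the collagens Col1a1, Col1a2 and Col3a1 were at background. Endothelial genes had 5 of 10 detected. These were genes shared with stem cells or platelets, among them Vwf at 702 ± 44.4 and 441 ± 26.1, whereas Cdh5 and Kdr, which define endothelium, were at background. Eosinophil genes had 2 of 7 detected, of which Prg2, a granule protein, read 784 ± 45.5 and 436 ± 20.2 while Epx and Ccr3 were at background. The part of other cells in any of these signals was not tested.

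Lymphoid rows were mixed. In the B cell list the surrogate light chain genes of the earliest B lineage cells were both detected, Igll1 at 1034 ± 47.5 and 333 ± 14.7 and Vpreb1 at 738 ± 56.3 and 324 ± 24.2. Dntt, the polymerase that adds bases at joints of rearranged segments and an early lymphoid gene, read 495 ± 29.5 and 168 ± 6.03. Cd79b (528.8 and 288.1) and, at low signal, Blnk (127.2 and 97.7) were also detected. Pax5 (87.6 and 85.8) and Ms4a1 (85.9 and 82.1), of committed and mature B cells, were at background. In the T cell list 4 of 9 members were detected and the brightest was Cd8b1 at 3541 ± 149 and 1498 ± 88.3. Lck followed at 354.1 ± 21.1 and 239.9 ± 14.4, and Cd3d (104.5 and 103.9) and Zap70 (100.1 and 89.3) were detected at low signal. Cd8a (85.4 and 78.5), whose product pairs with that of Cd8b1, Cd4 (94.6 and 79.5) and the receptor constant gene Trac (84.8 and 79.2) were at background. In the natural killer list 3 of 7 members with a row were detected. Nkg7, a granule protein that myeloid progenitors also express, read 2078 ± 110.1 and 1136 ± 66.6. Klrd1 (169.6 and 116.5) and Klrb1c (103.4 and 90.6) were detected at lower signal, while Ncr1, Gzmb and Eomes were at background.

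Cell cycle genes were broadly present. Of 18 G1 cyclins and kinases 16 were detected (88.9%), of 40 DNA replication genes 32 (80%) and of 36 G2 and mitosis genes 18 (50%), or 17, 35 and 23 above the negative controls. In G1, Tfdp1, the partner of E2F factors, read 1406 ± 79.2 and 696 ± 42.7, Cdk4 1122 ± 55.8 and 742 ± 37.7 and E2f1 719 ± 46.3 and 531 ± 34.2. In replication, Rpa1, which coats single-stranded DNA, read 4106 ± 286 and 2096 ± 116, Mcm5, a subunit of the replicative helicase, 4141 ± 219 and 1952 ± 118, and the flap nuclease Fen1 2194 ± 118 and 1026 ± 74.3. In mitosis, the centromeric histone Cenpa read 4109 ± 207 and 1703 ± 128 and the spindle midzone protein Prc1 1276 ± 98.6 and 469 ± 32.9. Some genes of dividing cells were at background, namely Ccna2 (95.4 and 85.1), Ccnb2 (86.5 and 78.8) and the polymerase subunit Pola1 (81.8 and 76.8).

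Inhibitors of the cycle were present in part. Of 8 cyclin-dependent kinase inhibitor genes 5 were detected, with Cdkn1c the brightest. Cdkn3, a phosphatase that acts on cyclin-dependent kinases, read 376 ± 27.7 and 189.7 ± 13.4, and Cdkn1a, the p53 target p21, 174 ± 7.91 and 115 ± 3.75. Cdkn2a (90.1 and 82.4) and Cdkn2b (82.9 and 84.00), the INK4 genes of senescence, were at background on both arrays. Cdkn1b, which encodes p27, was above the negative controls at 105 and 111 and not detected.

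Among metabolic lists, respiration was the brightest. ATP synthase and respiratory chain genes had 30 of 36 members detected (83.3%), a median percentile of 98.1 and a summed signal of 90916 and 59052. Of these, 5 were among the 200 brightest, Atp5b first and Atp5g3, a subunit of the rotating ring of the enzyme, next at 9323 ± 407 and 6777 ± 298. Glycolysis had 15 of 23 detected (65.2%) with a median percentile of 89.9. Its brightest were Ldha, the lactate dehydrogenase, at 5528 ± 317 and 4528 ± 239.8, and Gapdh at 4782 ± 169.8 and 3724 ± 121. Hk1, which phosphorylates glucose at the entry of the pathway, read 163 ± 6.43 and 96.7 ± 2.95.

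The pentose phosphate pathway had 5 of 7 detected and all 7 above the negative controls, led by Taldo1, the transaldolase, at 2798 ± 185 and 1326 ± 60.5. In the citrate cycle 17 of 27 were detected (63.0%), and the brightest were the isocitrate dehydrogenase subunits Idh3g at 3092 ± 251 and 2207 ± 144 and Idh3b at 2186 ± 118 and 1426 ± 77.7. One-carbon and nucleotide synthesis had 19 of 23 detected (82.6%), led by the nucleoside diphosphate kinase Nme1 at 5993 ± 289 and 3766 ± 227 and by Impdh2, which commits purines to guanine nucleotides, at 5217 ± 271 and 3077 ± 236. Lipid lists were dimmer. Fatty acid oxidation and synthesis had 7 of 16 detected (43.8%), with Acly, which makes cytosolic acetyl-CoA, at 2876 ± 160.4 and 2360.5 ± 164 and Fasn, the fatty acid synthase, at background (91.7 and 80.9). Cholesterol synthesis had 10 of 16 detected and a median percentile of 70, with Fdps, the farnesyl diphosphate synthase, at 712 ± 54.9 and 615 ± 39.4 its brightest. Amino acid and glutamine use had 7 of 11 detected (63.6%), led by Odc1, the ornithine decarboxylase of polyamine synthesis, at 2548 ± 133 and 1679 ± 118. Redox defence had 13 of 23 detected, with Gpx1 first, while Hmox1 and Nqo1, targets of the factor Nrf2, were at background. Hif1a (94.6 and 87.00) and Epas1 (87.7 and 81.2), the oxygen-regulated factors, were at background.

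The interferon list was split 1 week after pIpC. Of 35 genes with a row 24 were detected (68.6%), with a median percentile of 88.6. After Ifitm3 the brightest were Ifitm2 at 4427 ± 212 and 2084 ± 97.5, Ly6e, the immunoproteasome subunit Psmb10 at 2843 ± 139.8 and 1741 ± 102, and H2-T23, a class I molecule, at 2451 ± 135 and 1724 ± 92.7. The classical antiviral genes Ifit1 (87.1 and 76.3), Oas3 (89.2 and 95.00) and Mx1 (90.3 and 82.6) were not detected. Mx1 is known to be defective in C57BL6 mice. No untreated mice are among the samples used here, so these levels have no baseline without pIpC, and members of the Ifitm and class I families are similar enough that probes may cross-react.

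The 2 control pools differed in several gene groups. Differences are log2 signal of replicate 1 minus replicate 2 after background correction with the negative controls and quantile normalization. Replicate 1 was the brighter array, with a median deposited signal over detected rows of 231 against 186, and the normalization removes this shift, so a gene with equal deposited signals can have a negative difference. Over the 9619 rows the median difference was 0.06 with an SD of 0.52, and 467 rows (4.85%) were over 2-fold apart, 122 higher on replicate 1 (1.27%) and 345 higher on replicate 2 (3.59%). Among the 200 brightest rows the SD was 0.29 and Ighm, at −1.68, was the only row over 2-fold apart with this scaling. The next largest were IGH-VJ558 at −0.97, Pabpn1 at −0.95 and Igkc at −0.87 toward replicate 2, and Atpif1 at 0.83, Iglv1 at 0.63 and the unmatched LOC268569 at 0.61 toward replicate 1. With 1 array on each side none of these differences has a replicate check.

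Immediate early and stress genes were the listed group with single genes farthest apart. All 13 detected genes of the immediate early and stress list were higher on replicate 2, 7 of them over 2-fold, with a median of −1.13. Egr1, a zinc finger factor induced within minutes of stimulation, read 671 ± 34.96 and 2769 ± 182 and differed by −2.76. Fosb, a member of the AP-1 factors, read 106 ± 3.07 and 273 ± 14.99 and differed by −2.93, or by −1.66 without background correction, less than the −2.60 of Egr1. Its signal on replicate 1 was close to the 98.6 units of the negative control limit. Fos read 515 ± 30.2 and 1616 ± 103, a difference of −2.36, and Zfp36, which destabilises messenger RNAs, 1141 ± 57.4 and 1628 ± 87.8, a difference of −1.13. Some members were brighter on replicate 1 before normalization. Among them Dnajb1, a heat shock cochaperone, read 2681 ± 145 and 2103 ± 125, and its difference was −0.23.

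Neutrophil granule genes lay on the same side. All 8 detected members were higher on replicate 2, 7 over 2-fold, with a median of −1.63 and a summed signal of 2204 and 4465. S100a8 and S100a9 encode both chains of the calcium-binding protein calprotectin. S100a8 read 1226 ± 84.2 and 1929 ± 127 and differed by −1.26. S100a9 read 507 ± 41.3 and 1099 ± 86.7 and differed by −1.84. Ngp, a granule protein, read 155 ± 5.67 and 375 ± 17.3 and differed by −2.34, the largest difference of the list. Without background correction Ngp differed by −1.65 and S100a9 by −1.67, and 5 members were over 2-fold apart. Lcn2, an iron-chelator binding protein, and Camp, an antimicrobial peptide, differed by −1.85 and −1.63. Mmp8 (85.6 and 83.6) and Cxcr2 (92.5 and 94.9) were at background or near it on both arrays, and Ly6g, which encodes the gated neutrophil antigen, has no row. The part of neutrophils in the difference between the pools was not tested.

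The letters TATAAA, core of a classical promoter element, stood on either strand in 6 of the 12 promoters of the neutrophil list found in RefSeq (50%), against 14.2% of all promoters and 7.11% of those of detected rows. Of the detected genes, Ngp, Lcn2, Camp and Retnlg held no match, and the matches in Ly6g, Mmp8 and Cd177 belong to genes with no row or not detected. The windows of the 3 detected genes with a match are shown to let it be seen, at chr3:90669029-90669058 on the plus strand for S100a8, chr3:90695704-90695733 on the minus strand for S100a9 and chr3:106167550-106167579 on the minus strand for Chil3, a chitinase-like protein of granules. Capitals mark the match, whose first base lay at position −30, 0 and −3 from the annotated start. Matches were counted at any position of the promoter, and a match of letters is not evidence of a working element.
S100a8: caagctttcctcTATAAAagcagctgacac
S100a9: caaggagctgccTATAAAtactgggcttac
Chil3: ggtctcggagtaTATAAAaagccagcagaa

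Genes of division lay on the other side. Of 18 detected G2 and mitosis genes 16 were higher on replicate 1, with a median of 0.77, against 55.9% of all detected rows. Prc1 differed by 0.99, Birc5, the survivin of the chromosomal passenger complex, by 0.95 with 975 ± 50.4 and 380.3 ± 23.4, and Tpx2, a spindle assembly factor, by 1.14 with 215 ± 13.5 and 118 ± 4.001. Without background correction Tpx2 differed by 0.63. Of 32 DNA replication genes 29 were higher on replicate 1, with a median of 0.39, and Gins1, a subunit of the replicative helicase complex, differed most at 658 ± 36.3 and 225 ± 9.13 and 1.36. Cdk6 (1.21) was higher on replicate 1 and Ccnd2 (−1.09) on replicate 2, so the G1 partners lay on opposite sides. Without background correction these differences were 0.64 and −0.97.

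Stem cell genes leaned toward replicate 2. Of 18 detected long-term stem cell genes 15 were higher there, with a median of −0.33, and of 25 transcription factors 18, with a median of −0.26. Over all detected rows 55.9% were higher on replicate 1. Sult1a1, a sulfotransferase, read 208 ± 11.4 and 330.0 ± 17.3 and differed by −1.43. Fli1, an Ets factor of megakaryocytes and stem cells, read 176 ± 7.35 and 372 ± 20.7 and differed by −2.01, and Selp, the P-selectin of platelets, 342 ± 18.4 and 876 ± 57.05 and −2.12. The megakaryocyte list, which holds Selp, was balanced, 8 higher on replicate 1 and 7 on replicate 2, with a median of 0.03. Ly6a differed by −0.90, Kit by −0.28 and Cd34 by 0.41, all under 2-fold.

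B lineage rows parted in both directions. All 6 detected genes of the B cell list were higher on replicate 1, with a median of 0.71, Dntt by 1.61 and Igll1 by 1.27. Of 26 detected immunoglobulin rows, by contrast, 23 were higher on replicate 2, 17 of them over 2-fold, with a median of −1.58 and a range from −2.97 to 0.63. The plasma cell list lay between, with its 4 detected members all higher on replicate 2, none over 2-fold and a median of −0.24. Metabolic lists had medians from −0.02 for glycolysis (7 of 15 detected members higher on replicate 1) to 0.27 for the pentose phosphate pathway (5 of 5). One-carbon and nucleotide synthesis (15 of 19) and the respiratory chain list (22 of 30) also had more members higher on replicate 1, against 55.9% of all detected rows. The interferon list was at −0.07.

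**Figure D5:**
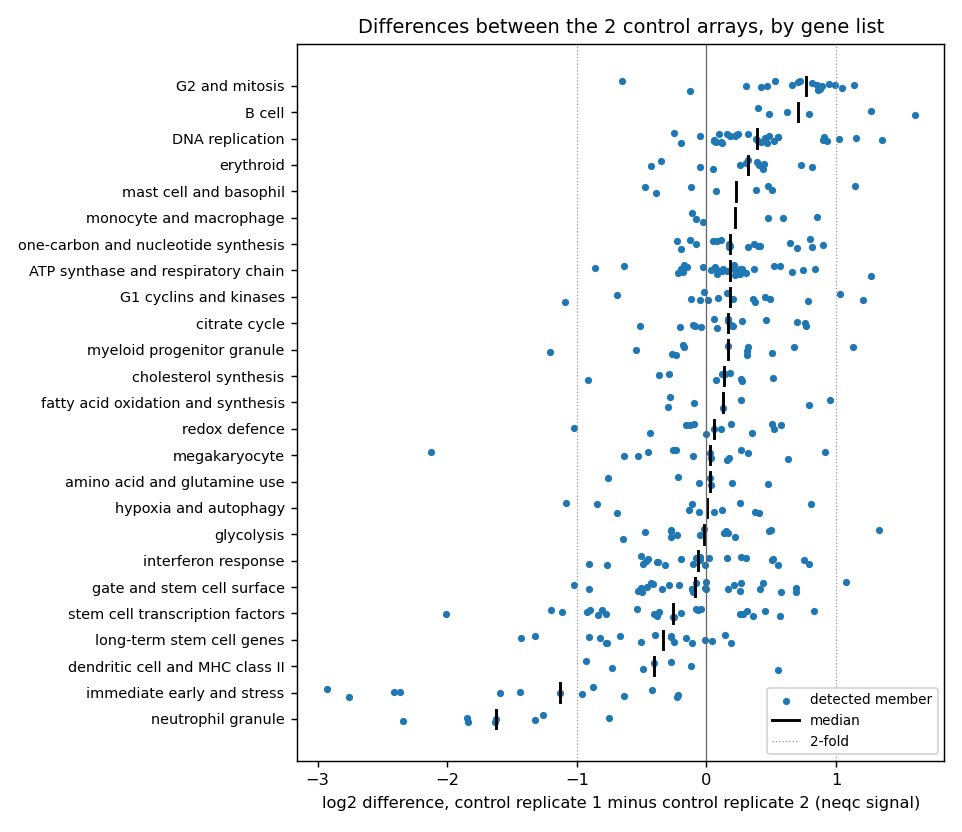
Log2 difference between the control arrays (replicate 1 minus replicate 2, after background correction and quantile normalization) of each detected gene, 1 line per list with at least 6 detected genes, ordered by the list median (black bar), with dotted lines at 2-fold. The neutrophil granule and immediate early lists lie wholly to the left of 0, and the G2 and mitosis, B cell and DNA replication lists mostly or wholly to the right.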

How the data were processed

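Total RNA of sorted LSK cells was amplified to biotinylated cRNA and hybridised to Illumina bead arrays, 1 per sample, per the labels' protocols. The sources used here do not name the array type or the scanner. The deposited table gave linear intensity per gene name, without background subtraction or normalization, per the file headers and values. It also held, as deposited by the authors, the standard error over beads on the same signal scale without normalization, a detection p-value whose method was not given, and the number of beads (median 44 on both arrays). 1 row replaced by annotation text was left out. How probes of a name were combined is unknown, and the number of arrays limits the precision.

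Names were updated through RefSeq (GRCm38.p6), used for names and promoters alone. Of 30854 names 16223 matched a current symbol, 5684 an older one and 868 a gene identifier, and 8079 matched none. Differences used limma 3.58.1 in R 4.3.3 (neqc: normexp with negative controls, offset 16, quantile normalization, log2) over the control arrays, checked on simulated data. No background correction, cyclic loess and median scaling were alternatives. Counts and ranks used pandas 2.3.3 in Python 3.11.15.

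The genes named were Kit, Ly6a and Cd34, the 20 best ranks, the 3 rows on each side of rank 200, and the 6 rows per direction farthest apart among the 200. Per list they were the 5 brightest detected members, up to 3 not detected on either array, and the member farthest apart if over 2-fold. Some genes that this rule names are not reported here. Other genes named were chosen after their values were seen. Members and lists were chosen with earlier results of these data known. Genotypes were not compared.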

Additional observations from a re-analysis of the deposited data

How the results depend on the processing

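The ribosomal protein share of 19.0% was 22% in the brightest 100 rows and 11.25% in the brightest 400. Rows over 2-fold apart among the 200 numbered 2 under median scaling and 4 under cyclic loess against 1, and over all detected rows 139 without background correction against 467. With each replicate left out in turn, rows detected ranged from 10435 to 11102, rows shared with the 200 from 185 to 189 and ribosomal protein rows from 37 to 38. Other rankings shared 199 rows, and 194 with no detection filter. For the lists, the count above the negative controls and the other scalings were added after the data were seen. The medians of the immediate early, neutrophil, mitosis, replication and B cell lists kept their direction under all 3 other scalings, while those of the megakaryocyte, stromal, glycolysis, cholesterol, amino acid, redox, hypoxia and interferon lists turned under at least 1, with values from −0.09 to 0.13. The immunoglobulin median was −0.87 without background correction. Of 26 main alternatives 21 kept the value within the limits set and 5, given above, did not; the cause was not tested. Signal near the negative controls limits what can be said of dim genes. No paired analysis was possible because the report compares no groups and has 2 control samples only.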

Other observations

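The rows farthest apart between the control arrays carried names that matched no gene. All 13 rows more than 8-fold higher on replicate 2 were of this kind, out of 157 unmatched rows over 2-fold higher there. LOC385959 read 114 ± 4.02 and 1382 ± 93.3, LOC386360 255 ± 10.2 and 4066 ± 212 and F730003H07RIK 171 ± 6.66 and 1846 ± 107. Toward replicate 1 the differences were smaller. After background correction the largest were in the unmatched LOC674110 at 184 ± 6.77 and 92.3 ± 1.90 and 6430524C05RIK at 370.4 ± 16.98 and 129.8 ± 3.33. The mitochondrially encoded MT-ND5 at 175 ± 7.21 and 93.9 ± 2.83 and Fbp1, the gluconeogenic fructose bisphosphatase, at 284 ± 19.4 and 119 ± 4.50 followed. Without that correction LOC674110 differed by 0.81, MT-ND5 by 0.71 and Fbp1 by 0.98. These were less than Eif3k at 1.42 (1261 ± 97.2 and 333 ± 16.2) and Dntt at 1.20. These rows were chosen after their values were seen and are given as values.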
